A study of Mus musculus with 3 samples.

Results

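Transcripts of 10 genes of cytokine signalling were counted in microglia of the mouse lumbar spinal cord. The genes were the receptor chains Il6ra and Il10ra, the kinases Jak1 and Jak2, and the transcription factors Stat3 and Stat6. The others were the feedback inhibitors Socs1, Socs2, Socs3 and Cish. The members were chosen by symbol, and all 10 were among the 27998 genes of the deposited matrix. Among the members with at least 10 UMIs per 1000000 UMIs (CPM) in the higher library, Socs3 differed most between the libraries. Its level was 42.4, 96.0 and 544 CPM in libraries 1, 2 and 3, and at 2000 UMIs per cell it was found in 7.84%, 15.9% and 58.1% of cells. Its 2.26-fold gap between libraries 2 and 1 was 1.98-fold at 2000 UMIs per cell. Socs1, at 7.45, 7.22 and 15.9 CPM, was past 2-fold higher in library 3 over all UMIs but not at 2000 UMIs per cell. Stat3, Stat6, Jak1, Il6ra and Il10ra stayed within 2-fold in every pair of libraries, and Socs2 and Cish were close to undetected. Inside library 3 the cells with the most UMIs of immediate early genes held 2.50 times as many Socs3 UMIs as the cells with the fewest (95% interval 2.28 to 2.74, counting error only), while the same ratio was 0.945 to 1.14 in the other 5 frequently detected members.

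Cytokines of the interleukin-6 and interleukin-10 type bind receptors that carry JAK tyrosine kinases on their inner side. The activated kinases phosphorylate STAT proteins, which then move to the nucleus and switch on target genes. Socs genes are such targets, and their proteins bind receptors and kinases and shut the signal down, so that the pathway carries its own brake. In microglia, the resident macrophages of the central nervous system, STAT3 relays interleukin-6 and interleukin-10, and STAT6 relays interleukin-4 and interleukin-13. Only transcripts were counted here, so phosphorylation and the activity of the pathway were not measured.

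YFP (+) cells were sorted from the lumbar cord of young adult C57BL/6 mice that carried 1 Cx3cr1-creER-yfp allele, in which the Cx3cr1 promoter, active in microglia and also in circulating monocytes, drives the recombinase and the YFP. A naive group, a group at 24 h and a group at 48 h after sciatic nerve transection each gave 1 library, made according to the methods from 3 pooled animals, and all groups carry the same allele. The 3 libraries are joined in 1 matrix and are told apart by the number that ends each barcode. None of the sources used here says which number stands for which time after injury, so the libraries are called 1, 2 and 3 by that number, no group was tested against another, and no p-value is given.

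Library 1 stood apart in size and depth, with 609 cells at a median of 2218 UMIs against 3591 cells at 5952 in library 2 and 3322 cells at 5742 in library 3. Cells were thinned to 2000 UMIs for shares and statements on cells, unless said to be without thinning. This left 408, 3569 and 3284 cells and set aside 201, 22 and 38 shallower ones. The marker counts in this paragraph used all cells before thinning. The libraries shared few cell barcodes, 5 between libraries 1 and 2, 3 between libraries 1 and 3, and 19 between libraries 2 and 3. Every cell held UMIs of at least 2 of 10 microglia markers such as P2ry12 and Tmem119, whose sum was 22980 to 28090 CPM, whereas 7 monocyte markers summed to 3.32 to 8.94 CPM and 7 perivascular macrophage markers to 0.745 to 2.28 CPM, with Cd163 and Lyve1 at 0 in all 3 libraries. Lists of 8 further cell types summed to at most 77.4 CPM each, the highest being the oligodendrocyte lineage. Before thinning, cells with UMIs of at least 2 markers of the oligodendrocyte lineage numbered 5, 141 and 102. They made up 0.821%, 3.93% and 3.07% of all cells, which are shares at unequal depth. The lineage sum was 77.4, 62.3 and 72.2 CPM in libraries 1, 2 and 3. No cells of another type were set apart, so the share of cells that free RNA alone would give was not measured, and its part in low levels such as those of Socs2 and Cish was not tested. Intervals are exact, Poisson for UMIs and Clopper-Pearson for shares, and cover counting error only.

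The STAT proteins bind a palindrome, TTC and GAA around a short spacer, and it was looked for in the promoters of the members because Socs genes are known STAT targets. RefSeq promoter windows of GRCm38.p6, from 250 bases before to 50 bases after the RefSeq start, were at hand for 8 of the 10 members, all but Socs2 and Il10ra. TTCNNNGAA, which reads the same on both strands, occurred in the windows of Socs3 and Cish and in 8.30% of all 32851 windows. The window of Socs1 held none. Stretches are shown only for the windows with a match, and Cish stayed below the 10 CPM minimum set for calls. Capitals mark the matches in the stretches below, which are written 5′ to 3′ along the gene, for Socs3 from the minus strand of chr11:117969392-117969580 and for Cish from the plus strand of chr9:107296654-107296683.
Socs3: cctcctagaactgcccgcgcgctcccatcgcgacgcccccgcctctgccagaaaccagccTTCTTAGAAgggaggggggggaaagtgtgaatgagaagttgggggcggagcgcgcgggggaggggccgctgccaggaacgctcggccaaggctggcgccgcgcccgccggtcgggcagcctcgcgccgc
Cish: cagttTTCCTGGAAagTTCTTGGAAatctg
The Socs3 match begins at base -154 from the RefSeq start, and the Cish window holds 2 matches that lie just downstream of it, at bases 1 and 12, an arrangement with at least 2 matches that 0.457% of all windows have. Both RefSeq starts lie inside the longer GENCODE gene spans given further down, by 681 bases for Socs3 and 633 bases for Cish, so that the stretches lie inside those spans and their place relative to other annotated starts differs. The same palindrome with 1 more base in the spacer, the spacing that STAT6 prefers, was in none of the 8 windows and in 6.95% of all windows. A match is a string of letters and not a measured binding site, and no binding was measured here.

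Il6ra encodes the chain that binds interleukin-6 and lies at chr3:89864059-89913196 (minus strand, GRCm38). Its level was 312 CPM in library 1 (95% interval 283 to 343, 419 UMIs), 186 CPM in library 2 (181 to 192, 4492 UMIs) and 225 CPM in library 3 (219 to 232, 4455 UMIs). Library 1 was the highest and library 2 the lowest, and the intervals did not overlap. At 2000 UMIs per cell the shares of cells followed that order, at 44.9%, 31.0% and 36.2%, whereas without thinning they were 46.6%, 68.3% and 71.3%, the lowest in the shallow library 1. Il6ra was 1.67-fold higher in library 1 than in library 2 (1.51 to 1.85) and 1.21-fold higher in library 3 than in library 2 (1.16 to 1.26).

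Il10ra, the ligand-binding chain of the interleukin-10 receptor at chr9:45253837-45269149 (minus strand), behaved much like Il6ra across the libraries. It reached 286 CPM in library 1 (258 to 316), 151 CPM in library 2 (146 to 156) and 176 CPM in library 3 (170 to 182), and was found in 42.4%, 27.6% and 29.5% of thinned cells. It was 1.89-fold higher in library 1 than in library 2 (1.70 to 2.1) and 1.62-fold higher than in library 3 (1.46 to 1.81). Il6ra UMIs per Il10ra UMI were 1.09 (0.948 to 1.26), 1.23 (1.18 to 1.29) and 1.28 (1.22 to 1.34). At least 1 of the 2 receptor chains was found in 69.6%, 49.6% and 55.4% of thinned cells.

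The kinases differed from each other in how often they were counted, on a scale of 3′ UMIs that does not grow with transcript length. Jak1, the kinase shared by the receptors of interleukin-6, interleukin-10 and interferons, lies at chr4:101152367-101265282 (minus strand) and was at 141.5 CPM in library 1 (122 to 163), 103 CPM in library 2 (99.2 to 107) and 118 CPM in library 3 (114 to 123). It was found in 24.0%, 18.8% and 21.1% of thinned cells. Jak2, the kinase of the receptors for GM-CSF and growth hormone, lies at chr19:29251828-29313080 (plus strand) and was counted with 15, 194 and 114 UMIs, or 11.2 CPM (6.25 to 18.4), 8.05 CPM (6.96 to 9.27) and 5.77 CPM (4.76 to 6.93). Its thinned shares, 1.72%, 1.32% and 1.40%, had overlapping intervals. Library 1 overlapped both other libraries in Jak2 level, although the ratio of library 3 to library 1 was 0.516 (0.300 to 0.953). In thinned cells that ratio was 0.730. Library 3 lay below library 2 over all UMIs, at a ratio of 0.716. That direction turned in cells thinned to 2000 UMIs, where the ratio was 1.09, so that no order of the libraries is given for Jak2.

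Stat3, the main relay of interleukin-6 and interleukin-10, lies at chr11:100885098-100939540 (minus strand). Its level was 87.1 CPM in library 1 (72.1 to 104), 77.4 CPM in library 2 (73.9 to 81.0) and 108 CPM in library 3 (104 to 113). Libraries 1 and 2 overlapped, and library 3 was 1.40-fold above library 2 (1.32 to 1.49) and 1.24-fold above library 1 (1.03 to 1.51). The shares of thinned cells were 15.4%, 14.4% and 19.4%. Stat6, the relay of interleukin-4 at chr10:127642986-127660957 (plus strand), was at 60.3 CPM (47.9 to 75.0), 36.0 CPM (33.6 to 38.5) and 50.2 CPM (47.1 to 53.5), with thinned shares of 10.5%, 7.40% and 9.87%. Here libraries 1 and 3 overlapped, and library 2 was the lowest.

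Socs3, the inhibitor that binds the shared interleukin-6 receptor chain and its kinases, lies at chr11:117966079-117970047 (minus strand). It had 57 UMIs in library 1, 2313 in library 2 and 10758 in library 3, or 42.4 CPM (32.1 to 55.0), 96.0 CPM (92.1 to 99.98) and 544 CPM (534 to 555). The 3 intervals did not overlap, and library 1 was the lowest here, whereas it was the highest for both receptor chains and, with an interval that met that of library 3, for Jak1. In library 3 Socs3 stood above 98.3% of all genes that had a UMI there, against 89.0% in library 2 and 69.5% in library 1. These shares also depend on depth, which sets the genes that have a UMI. Socs1, at similar levels of 7.45 and 7.22 CPM, stood above 29.0% of such genes in library 1 and 43.0% in library 2. The ratio was 12.8-fold between libraries 3 and 1 (9.89 to 16.9), 5.67-fold between libraries 3 and 2 (5.42 to 5.93) and 2.26-fold between libraries 2 and 1 (1.74 to 2.996).

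A Socs3 UMI was found in 32 of 408 thinned cells of library 1 (7.84%, 5.43% to 10.9%), 566 of 3569 of library 2 (15.9%, 14.7% to 17.1%) and 1909 of 3284 of library 3 (58.1%, 56.4% to 59.8%). Without thinning the shares were 8.21%, 41.05% and 85.1%. The 2.26-fold gap between libraries 2 and 1 narrowed to 1.94-fold when the CPM of single cells were averaged and to 1.98-fold in thinned cells, both under the 2-fold limit.

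**Figure D1:**
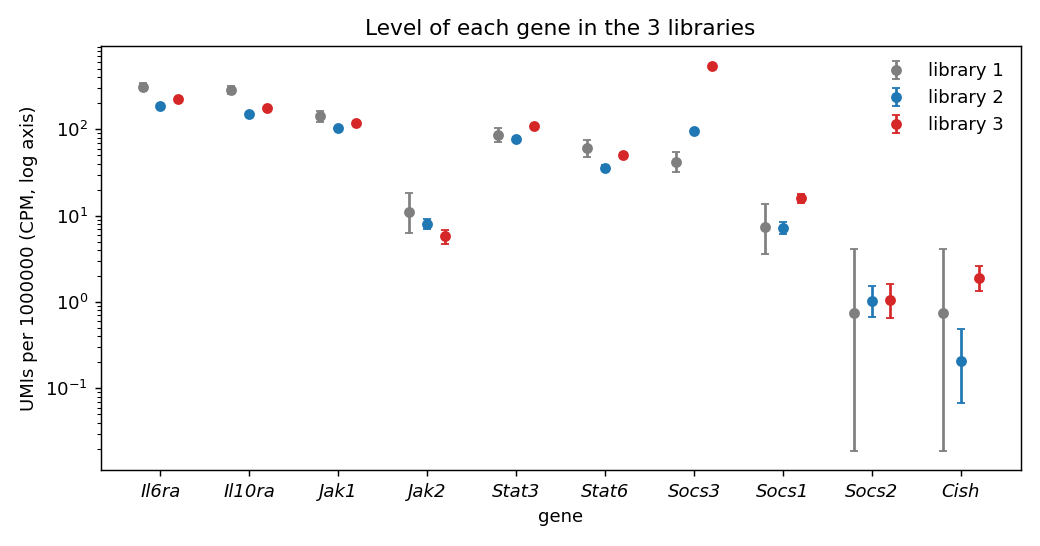
The level of each gene (x axis) in UMIs per 1000000 (y axis, log scale) is plotted for libraries 1, 2 and 3, with points for the summed UMIs of all cells and bars for exact Poisson 95% intervals. Socs3 ranges from 42.4 to 544 CPM, while the receptor chains, Jak1, Stat3 and Stat6 keep within 2-fold and Socs2 and Cish lie between 0.207 and 1.92 CPM.

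Socs1, the inhibitor best known for curbing interferon signalling, lies at chr16:10782240-10785536 (minus strand) and was sparse. It had 10, 174 and 315 UMIs, or 7.45 CPM (3.57 to 13.7), 7.22 CPM (6.19 to 8.38) and 15.9 CPM (14.2 to 17.8). Libraries 1 and 2 could not be separated, and library 3 was 2.21-fold above library 2 (1.83 to 2.67) and 2.14-fold above library 1 (1.15 to 4.51). The thinned shares were 1.72%, 1.29% and 2.44%, and in thinned cells the ratios were 1.961 against library 2 and 1.47 against library 1, under the 2-fold limit. Socs1 thus lay at the edge of the limit.

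Socs2 and Cish, inhibitors that STAT5 induces after growth hormone and other cytokines, were at the limit of the depth. Socs2, at chr10:95385362-95417180 (minus strand), had 1, 25 and 21 UMIs, or 0.745, 1.04 and 1.06 CPM, with overlapping intervals. Cish, at chr9:107296026-107302784 (plus strand), had 1, 5 and 38 UMIs, or 0.745 CPM (0.0188 to 4.15), 0.207 CPM (0.0674 to 0.484) and 1.92 CPM (1.36 to 2.64). The Cish interval of library 3 lay above that of library 2, with a ratio of 9.26 (3.64 to 30.2) that was 8.12 to 13.04 under the alternatives that gave a value. At equal depth the gene was found in 12 of 3284 cells of library 3 (0.365%, 0.189% to 0.637%) and 1 of 3569 of library 2 (0.0280%, 0.000709% to 0.156%). Cish stayed below the 10 CPM minimum set for calls, and these values rest on few UMIs.

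**Figure D2:**
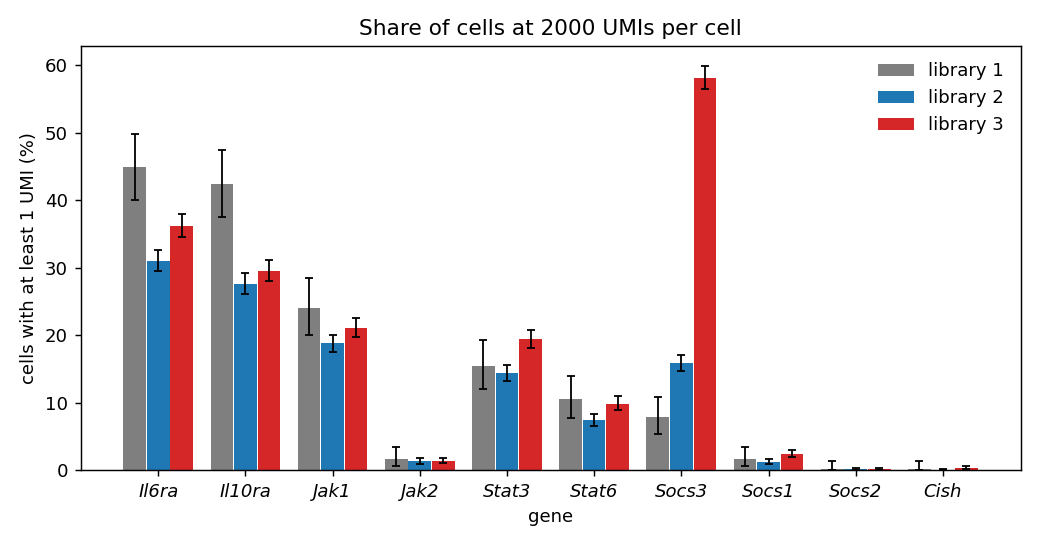
Bars give the share of cells (y axis, %) with at least 1 UMI of each gene (x axis) after thinning to 2000 UMIs per cell, with exact 95% binomial intervals. Library 1 has the largest share for Il6ra (44.9%), Il10ra (42.4%) and Jak1 (24.0%, with an interval that overlaps that of library 3), and library 3 for Socs3 (58.1%).

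Members past a 2-fold difference with at least 10 CPM in the higher library are given here beside the shares of all genes past the same limits. Between libraries 2 and 1, Socs3 was the only 1 of 7 members above this minimum that was 2-fold higher in library 2, and none was 2-fold lower, where 5.92% of 8655 genes were higher and 5.81% lower. Between libraries 3 and 1, Socs3 and Socs1 were higher among 8 members and none was lower, beside 4.14% and 7.34% of 8512 genes. Between libraries 3 and 2, Socs3 and Socs1 were again higher among 7 members and none was lower, beside 1.57% and 3.2% of 8258 genes. Socs1 met the 10 CPM minimum only through library 3, at 15.9 CPM against 7.45 and 7.22 CPM in libraries 1 and 2. It could therefore enter these comparisons only as a gene higher in library 3. Jak2 met the minimum only through library 1, at 11.2 CPM, and could enter only as a gene higher there. These comparisons share libraries and are not independent of each other.

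The median log2 ratio of the members tested was -0.45 between libraries 2 and 1, -0.26 between libraries 3 and 1, and 0.47 between libraries 3 and 2, beside -0.11, -0.12 and -0.03 for all genes. Socs3 ranked 371 of 8655 genes from the highest ratio between libraries 2 and 1, 24 of 8512 between libraries 3 and 1, and 35 of 8258 between libraries 3 and 2. Of all genes past 2-fold, 50.4% were higher in library 2 than in library 1 and 36.0% higher in library 3 than in library 1, and under TMM scaling, which moved the median of all genes to 0.08 and 0.11, these shares became 74.0% and 65.7%. The receptor chains, Jak1 and Stat6 stayed below 1 against library 1 and Socs3 stayed above 1 under every scaling, while Stat3 between libraries 2 and 1 went from 0.888 to 1.01.

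The spread of Socs3 over cells showed whether a few cells held most of its UMIs. In library 3, 41.9% of thinned cells had no Socs3 UMI, 31.3% had 1, 15.6% had 2 and 11.2% had 3 or more, with up to 11 in a cell. A Poisson law of the same mean, 1.04 UMIs per cell, gives 35.5% of cells without a UMI, and the variance was 1.45 times the mean. In library 2 the mean was 0.175, the share without a UMI was 84.1% against 84.0% under that law, and the variance was 1.03 times the mean. In library 1, with a Socs3 UMI in only 32 of 408 cells, the variance was 1.30 times the mean, with up to 4 UMIs in a cell. Socs3 was thus counted broadly in library 3, with more cells at both ends than even sampling gives, and close to even sampling in library 2. The mean was much lower in library 2, so the libraries are not ranked by the spread of Socs3. The variance over mean of Stat3, Stat6, Jak1, Il6ra and Il10ra was 1.001 to 1.09 in all 3 libraries. Their means, 0.0773 to 0.613 UMIs per cell, were also below that of Socs3 in library 3.

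**Figure D3:**
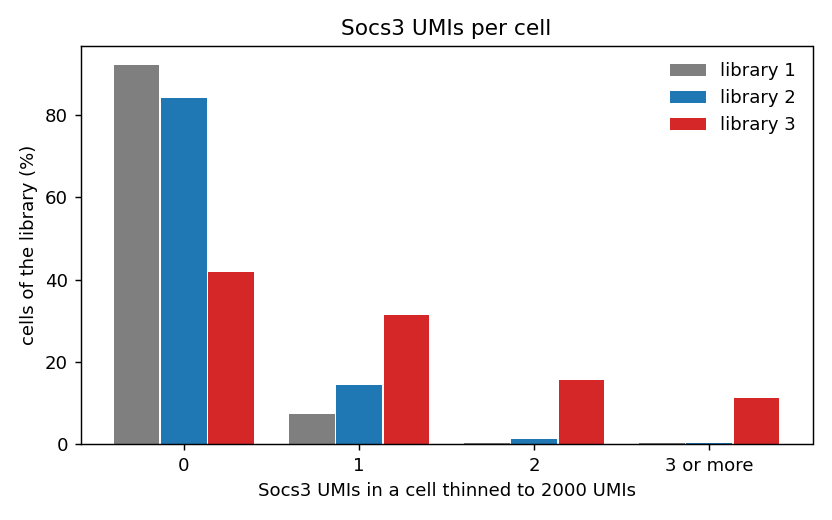
Bars give the share of cells of each library (y axis, %) with 0, 1, 2 or 3 or more Socs3 UMIs (x axis) after thinning to 2000 UMIs per cell. In library 3, 11.2% of cells hold 3 or more, against 0.196% in library 2.

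Within a library no relation between members was seen from cell to cell. The 6 frequent members, Socs3, Stat3, Stat6, Jak1, Il6ra and Il10ra, had a UMI in at least 5% of thinned cells of libraries 2 and 3, which gave 15 pairs. Pearson's r of the log of 1 plus the UMIs lay between -0.02 and 0.02 in library 2, between -0.02 and 0.03 in library 3, and between -0.11 and 0.09 over the 408 cells of library 1. These are descriptions over cells of 1 library each, and correlations of this size in sparse counts are no finding. Il6ra and Il10ra, for example, were found together in 323 cells of library 2 and 339 of library 3, where the product of their shares gives 306 and 351 cells.

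Cells with and without a UMI of the receptor chains had Socs3 about as often. A Socs3 UMI was found in 57.7% of 1819 cells of library 3 with Il6ra or Il10ra (55.4% to 59.95%) and in 58.7% of 1465 cells without (56.1% to 61.2%). The same shares were 15.8% and 16.0% in library 2 and 7.39% and 8.87% in library 1, with overlapping intervals. Since a cell without a UMI of a receptor may still hold its transcript, the shares compare cells by what was counted.

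The genes most alike to each frequent member, by the smaller of its correlations in libraries 2 and 3 among 4830 genes, reached only low values. For Socs3 these were Cebpb, a transcription factor of inflammation (0.05 in library 2 and 0.06 in library 3), Furin, a protein-cleaving enzyme (0.05 and 0.05), and Klf2, an early-gene transcription factor (0.04 and 0.16). Il6ra was most alike to Malat1, Btg1 and Jun, at 0.04 to 0.05 in both libraries. Stat3 (Slc4a7, Gpatch4, Pros1), Stat6 (Rrp36, Fam212a, Ndnl2), Jak1 (Ptpro, Fam3a, Vps37b) and Il10ra (Chordc1, Srgap2, Ppp1r12a) gave values of 0.03 to 0.06, which are too weak to read.

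The immediate early genes, which cells transcribe within minutes of a stimulus, differed between libraries with Socs3. A list of 19, among them Fos and Jun, summed to 2246 CPM in library 1, 3009 CPM in library 2 and 29300 CPM in library 3. In thinned cells the middle 90% of cells of library 2 held 2 to 12 of these UMIs and those of library 3 held 29 to 94. All 17 early genes above 10 CPM were past 2-fold higher in library 3 against library 2, where 1.57% of all genes were, with a median log2 ratio of 3.50. Among them, Egr2 met 10 CPM only through library 3, at 2.70 CPM in library 2 and 49.1 CPM in library 3. The list was chosen with earlier results of these data known. Early genes are also known to respond to the handling of tissue, and the part of dissociation, sorting or the single library in these values was not tested. Heat shock genes also differed in sum, at 710, 1476 and 3024 CPM.

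In library 3 Socs3 was also linked to early genes from cell to cell. Its r was 0.22 with Fos, 0.22 with Jun and 0.21 with Junb, with a median of 0.13 over 17 early genes. The median was 0.0023 over 12 early genes in library 2 and -0.01 over 9 in library 1. Socs3 averaged 0.0882, 0.175 and 1.04 UMIs per thinned cell in libraries 1, 2 and 3. In library 3 the median moved with depth, from 0.0830 at 1000 UMIs per cell to 0.196 at 5000. The medians of the libraries therefore cannot be compared as strengths of a link. The 1094 cells of library 3 with the fewest early-gene UMIs (mean 34.3) held 0.597 Socs3 UMIs per cell, and the 1094 with the most (mean 82.6) held 1.49. In shares, 45.0% of the former (42.0% to 48.0%) and 70.7% of the latter (67.9% to 73.3%) had a Socs3 UMI. Before thinning these cells had medians of 5023 and 6032 UMIs, and mitochondrial UMIs were 1.34% and 1.2%, so that depth moved with the split.

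The other members differed little along the same split of library 3. The ratio of the cells with the most to those with the fewest early-gene UMIs was 1.09 for Stat3 (0.901 to 1.31), 1.02 for Stat6 (0.780 to 1.33), 0.945 for Jak1 (0.794 to 1.13), 1.14 for Il6ra (1.004 to 1.29) and 1.14 for Il10ra (0.992 to 1.32). Socs1 gave 1.16 (0.656 to 2.07) on few UMIs. In library 2, where the same split compared means of 2.92 and 9.61 early-gene UMIs, Socs3 gave 1.02 (0.833 to 1.24) at 2000 UMIs per cell, 1.5 (1.13 to 1.99) at 1000 and 1.26 (1.09 to 1.45) at 5000, so that its value there depended on the depth chosen. In library 1 it was 1.09 (0.441 to 2.73), too wide to read.

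**Figure D4:**
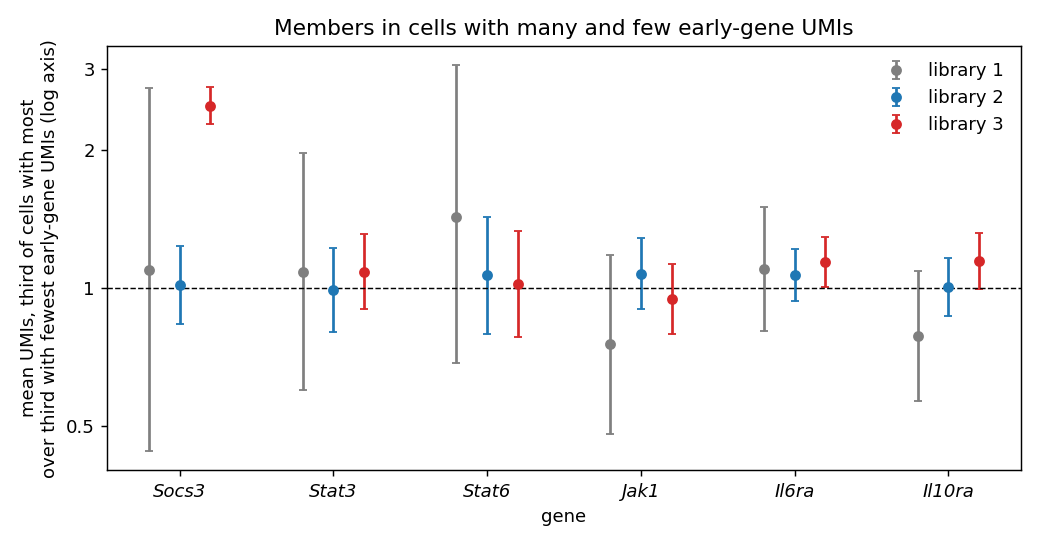
For 6 genes (x axis) the ratio of mean UMIs per thinned cell in the cells with the most early-gene UMIs to those with the fewest (y axis, log scale) is plotted by library with exact 95% intervals. Socs3 in library 3 lies at 2.50, and the intervals of all other points reach down to about 1 or below it.

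The cells of library 3 with the fewest early-gene UMIs held more Socs3 UMIs than the cells of library 2 with the most. These library 3 cells held 3.40 times (2.90 to 3.99) the 0.176 Socs3 UMIs per cell of those library 2 cells. Their early-gene mean was also higher, at 34.3 against 9.61. In a band of 13 to 24 early-gene UMIs, chosen after the values were seen because both libraries had cells there, Socs3 was at 0.633 UMIs per cell in 49 cells of library 3 (0.430 to 0.898) and at 0.205 in 156 cells of library 2 (0.140 to 0.290). The band holds the upper tail of library 2 and the lower tail of library 3. The cells were not matched within it, so early-gene UMIs may still differ there. Neither comparison tells library and early-gene level apart, and the part of each in the Socs3 values was not tested. Stat3 was 1.32-fold higher (1.08 to 1.61) in the low early-gene cells of library 3 than in the high ones of library 2, and Jak1, Il6ra, Il10ra and Stat6 had intervals that held 1.

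Library 2 held most proliferation UMIs, with 1009 CPM over 13 proliferation genes against 59.6 and 74.0 CPM in libraries 1 and 3, and Top2a at 195 CPM. The frequent members differed little with them. Between 1618 cells with at least 2 and 879 cells with 0 proliferation UMIs, the ratio was 0.975 for Socs3 (0.800 to 1.19), 1.08 for Stat3 (0.866 to 1.35), 0.891 for Stat6 (0.663 to 1.204), 0.954 for Jak1 (0.796 to 1.15) and 0.945 for Il6ra (0.825 to 1.09). Il10ra was at 0.863 (0.747 to 0.998), and with another seed for the thinning at 0.973 (0.831 to 1.14), an interval that held 1. Libraries 1 and 3 had only 3 and 36 such cells.

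Interferon-stimulated genes, read because Socs1 curbs interferon signalling, summed to 943, 838 and 498 CPM in libraries 1, 2 and 3, the reverse of the order of Socs1 between libraries 2 and 3. Within library 3, the 1094 cells with the most of these UMIs held 2.06 times the Socs1 UMIs of those with the fewest (1.14 to 3.84). A Socs1 UMI was in 3.29% against 1.65% of cells. The means were 0.03382 and 0.01645 Socs1 UMIs per cell, so that this ratio rests on few UMIs. It is 1 of many split ratios and was not repeated with another seed or depth. The same ratio was 1.0 in library 2 (0.456 to 2.20). Socs3 was at 0.982 in library 3 (0.903 to 1.07).

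The other genes of the pathway were read through 7 lists of ligands, receptor chains, kinases and STATs, inhibitors and targets of STAT3, STAT5 and STAT6, with 104 genes measured outside the members. In each pair of libraries 59 of them had at least 10 CPM in the higher library. Of these, 3 were 2-fold higher and 2 lower in library 2 against library 1, 8 higher and 6 lower in library 3 against library 1, and 6 higher and 1 lower in library 3 against library 2. The shares of all genes past 2-fold in these comparisons were 5.92% higher and 5.81% lower, 4.14% and 7.34%, and 1.57% and 3.2%. The median log2 ratios were -0.27, -0.09 and 0.15. The lists were chosen with results of these data known, and they are described by counts and medians alone.

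The ligands were scarce, as 12 of 27 had no UMI in library 2 and 13 in library 3. Il6, the ligand of Il6ra, was at 31.3 CPM (42 UMIs), 8.51 CPM (205 UMIs) and 12.2 CPM (242 UMIs), so that library 1 exceeded both others by more than 2-fold. Il2, a T cell growth factor, was at 12.7, 2.61 and 2.88 CPM on 17, 63 and 57 UMIs. Il10, the ligand of Il10ra, had 0, 1 and 4 UMIs. Osm, a ligand of the interleukin-6 family named after its values were seen, was at 22.3, 13.2 and 29.9 CPM. It was the only 1 of 5 ligands past 2-fold between libraries 3 and 2 (2.26-fold, 1.97 to 2.60), where 1.57% of all genes were higher.

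Of 19 receptor chains above the minimum, none was past 2-fold between libraries 2 and 1, where 5.92% of all genes were higher and 5.81% lower. In library 3, 3 were lower than in library 1 and 1 was lower than in library 2, where 7.34% and 3.2% of all genes were lower. Lepr, the leptin receptor, was lower in both comparisons, at 29.8, 18.8 and 7.64 CPM. Il7r, the interleukin-7 receptor, was past 2-fold lower only against library 1, at 67.0, 33.8 and 30.6 CPM. Il15ra, at 23.8, 28.1 and 18.8 CPM, was past 2-fold in no pair of libraries. The partner chains of the members were named for their role after their values were seen. Il6st, which carries the signal of Il6ra, was at 159, 90.8 and 72.6 CPM and so 2-fold lower in library 3 than in library 1, and Il10rb, the partner of Il10ra, was at 334, 210 and 223 CPM.

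Of 13 other inhibitors, 1 was past 2-fold higher in library 3 than in library 1, where 4.14% of all genes were. It was Ptpn1, a phosphatase that acts on JAK kinases, at 210, 369 and 456 CPM and 2.17-fold higher (1.93 to 2.45). A single gene of 13 does not set the list apart from that share. None of 13 was past 2-fold between libraries 2 and 1. None was between libraries 3 and 2, where Socs3 was at 5.67-fold and 1.57% of all genes were higher and 3.2% lower.

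Of 14 STAT3 targets, 2 were 2-fold higher in library 2 than in library 1, 5 in library 3 than in library 1, and 3 in library 3 than in library 2, and none was lower, where 5.92%, 4.14% and 1.57% of all genes were higher. Bcl3, a nuclear partner of NF-kB that restrains inflammation, was at 2.23, 14.4 and 14.8 CPM, with 3 UMIs in library 1, and Pim1, a kinase of cell survival, at 9.68, 35.7 and 44.3 CPM. Both were past 2-fold in libraries 2 and 3 against library 1, and between libraries 3 and 2 their ratios were 1.03 (0.878 to 1.21) and 1.24 (1.13 to 1.37). Junb, Mcl1 and Myc made up the 3 between libraries 3 and 2, where Junb was at 6.46-fold (6.33 to 6.59), and Junb is also in the early-gene list.

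The STAT6 targets of alternative activation were scarcely detected, with Arg1, Clec10a and Pparg at 0 UMIs in all 3 libraries, which allows up to 2.23, 0.124 and 0.152 CPM. The 2 listed genes that passed 10 CPM were Egr2, with 0, 65 and 970 UMIs, and Klf4, at 11.9, 14.0 and 401 CPM, and both are early genes as well. Of 5 STAT5 targets, Id1 and Pim1 were higher in library 2 than in library 1, beside 5.92% of all genes. Id1 had 0, 248 and 139 UMIs. Pim1 was the 1 of 4 that was higher in library 3 than in library 1 (4.58-fold), beside 4.14% of all genes. Osm, which is also listed as a STAT5 target, was the 1 of 5 that was higher in library 3 than in library 2, beside 1.57%. None of the STAT5 targets was past 2-fold lower, where 5.81%, 7.34% and 3.2% of all genes were lower.

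**Figure D5:**
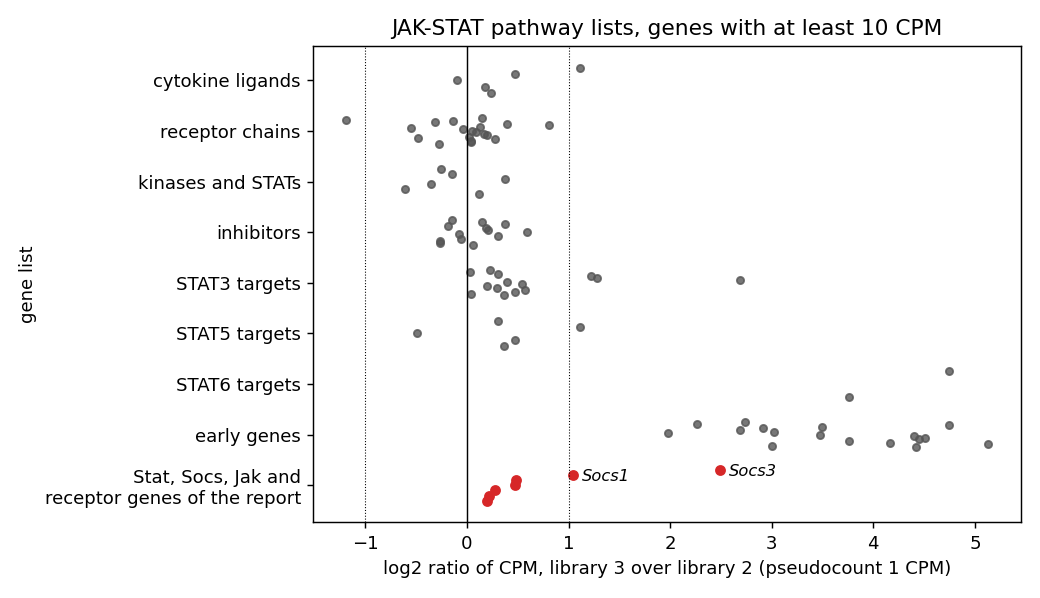
Each point is a gene with at least 10 CPM in the higher library, placed by its log2 ratio of CPM between libraries 3 and 2 (x axis, pseudocount 1 CPM) within its list (y axis), with dotted lines at 2-fold and the 7 members tested in red. Socs3, at 2.49, lies among the early genes and apart from the other inhibitors.

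Cish, Stat3, Stat6, Jak1 and Il6ra overlap a counted gene on the other strand, namely Gm17041, Stat5a, Nab2, Raver2 and Gm42809. Whether the counting used the strand is not stated, so reads of such pairs are uncertain where they overlap. Socs3, Socs1, Socs2 and Jak2 overlap no other gene of the annotation used.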

How the data were processed

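The authors deposited raw UMI counts, not normalized, as 1 matrix with 1 row per gene and 7522 cells with 45209768 UMIs. The submitters' processing notes name Cell Ranger 2.1.1 and mm10. Cells were sorted with doublet exclusion, and no doublet caller was run. The labels name version 3.1 and the methods version 3 of the kit, and the methods used here come from a paper whose data statement points to a different deposit.

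All deposited cells were used. Levels are summed UMIs per 1000000 (CPM). Log2 ratios carry a pseudocount of 1 CPM, and ratios an exact conditional binomial interval. Called means at least 2-fold with at least 10 CPM in the higher library. Cells were thinned to 2000 UMIs without replacement (seed 1). Early-gene and interferon splits compared equal numbers of cells with the most and the fewest UMIs of the list, ties broken by barcode order. A count of 0 was given a limit of 3 counts. Gene positions came from GENCODE M21 (GRCm38), which held 27645 of the identifiers.

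The members and lists were chosen with earlier results of these data known. Named were all members, in each comparison the 3 highest and 3 lowest pathway genes, the 3 genes most alike to each frequent member, and the 2 leading genes of a state list. Some genes that the rule names are not reported here. The steps were tested on simulated data with Poisson counts, in which 200 genes were raised 4-fold. Of these, 100% were called higher between libraries 3 and 2. The simulation raised no gene by 2-fold and none near 10 CPM, and it made no call against library 1. Alternatives were other cell filters, depths, seeds, scalings, minima, folds and a rank correlation. Calculations used scipy 1.17.1, numpy 2.4.6 and pandas 2.3.3 in Python 3.11.15, and edgeR 4.0.16 in R 4.3.3 for TMM factors only.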

Additional observations from a re-analysis of the deposited data

How the results depend on the processing

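Of 588 alternatives, 438 left a value within its counting interval or count range. Socs3 stayed higher in library 3 than in libraries 1 and 2 under every alternative, at 11.4 to 15.0-fold and 5.67 to 5.98-fold, and its order of shares stayed 3, 2, 1. The number of members past 2-fold between libraries 2 and 1, 1 as reported, became 0 with the mean CPM of single cells or with thinned cells, 2 with no minimum CPM and 4 at a 1.5-fold limit. Between libraries 3 and 1, 2 as reported, it became 1 with thinned cells, with a minimum of 50 CPM and, chosen after the data were seen, with thinned cells without proliferation UMIs, and 4 at 1.5-fold. Between libraries 3 and 2 it became 1 under the same 3 settings. With no minimum CPM both numbers were 3, Cish being added as higher. The call lost under those 3 settings was that of Socs1. The shares of all genes past the limits under each alternative are not given here, so these numbers of members cannot be read against them. The Socs3 share in libraries 1, 2 and 3 was 3.46%, 8.33% and 37.5% at 1000 UMIs per cell, 23.3% and 70.0% in libraries 2 and 3 at 3000, 0.490%, 1.40% and 26.8% with at least 2 UMIs required, and 41.05% and 85.1% in libraries 2 and 3 without thinning. The member pairs past a correlation of 0.1 in library 1 numbered 1 as reported, 0 with seed 2 and 2 by Spearman's rank correlation. The median correlation of Socs3 with early genes in library 3 was 0.0830 at 1000 UMIs and 0.196 at 5000. The Socs3 ratio along the early-gene split of library 2 was 1.5 at 1000 UMIs and 1.26 at 5000. The Il6ra ratio along that split of library 3 turned to 0.992 at 1000 UMIs, and with seed 2 the ratios of Stat3 and Stat6 in the 36 proliferating cells of library 3 turned to 1.48 and 1.19. Beyond the smaller number of UMIs or cells that a setting leaves, the cause was not tested. Leaving out shared barcodes, added after the data were seen, changed no call. No paired analysis was possible because each group has 1 library and no test was made. Library 1, with 1343055 UMIs, limits what can be said of Jak2, Socs1, Socs2 and Cish.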
